A study of Drosophila melanogaster with 12 samples.

Results

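Adult females of *Drosophila melanogaster* reared on an intermediate diet, whose protein-to-carbohydrate (P:C) ratio was 0.55, were compared with females reared on a low-protein diet of P:C 0.25. The comparison used 6 of the 12 samples of the study, the 3 labelled 0.55 and the 3 labelled 0.25, and no measured value entered this choice. All flies came from an outbred laboratory population with no transgene or mutation named, and were fed diets of equal caloric value in which the amounts of sugar and yeast differed. Each sample was a separate pool of 12 whole females frozen on day 13 after egg collection. The other 6 samples, 3 from the control diet (P:C 0.4) and 3 from the diet highest in protein (P:C 0.7), were used to place the levels. Sampling was timed from the egg and days since eclosion are not given, so that diet and adult age at freezing cannot be told apart.

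A whole fly yields a mixture of RNA from muscle, nervous system, gut, fat body and ovary. Fruit flies digest starch and disaccharides in the midgut with amylases and maltases, and the output of these enzymes is known to respond to the sugar in the food. Thoracic flight muscle holds a large share of the mitochondria of an adult fly and uses actin, troponin and myosin forms of its own, while the antenna and the eye each use a small set of proteins made almost nowhere else. In whole-fly RNA, fewer cells of a type and less RNA per cell cannot be told apart.

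The 6 samples held 6206520 to 10883919 counts on transcripts. In them 3 counts, the smallest number taken as detected, were worth 0.276 to 0.483 CPM (counts scaled by library size, here without further normalization). That limit covers counting error only. The levels in CPM given below were also normalized between samples by TMM. Each gene has 1 transcript in the table and is called here by the name the table gives it. Pearson correlations of log2 CPM ran from 0.978 to 0.989 within a diet and from 0.963 to 0.983 between the diets, so that single samples of different diets were often as alike as samples of the same diet. One library stood apart on genes that a female should lack. Of 16 markers of testis and male accessory gland, 14 had a count in replicate 3 of the 0.55 diet, with a sum of 18.8 CPM, against 0.373 to 0.856 CPM in each of the other 11 samples. In that library the sperm gene loopin-1 had 34 counts and the seminal fluid gene Acp36DE had 25, while neither passed 6 counts elsewhere. Results without this library are given with those of the other libraries left out in turn.

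Of 9740 transcripts tested, 110 were differentially expressed (DE) by the thresholds used here (adjusted p below 0.05, change above 1.5-fold), or 1.13% of those tested. On the 0.55 diet 85 were lower (0.873% of all tested) and 25 were higher (0.257% of all tested). The share of the DE transcripts that were lower was 77.3% (95% Clopper-Pearson interval 68.3% to 84.7%). That interval treats transcripts as independent and does not cover the spread between libraries. Of all tested transcripts, 46.9% had a log2 fold change below 0. The median log2 fold change was -1.04 for the DE transcripts that fell, 1.05 for those that rose and 0.02 over all tested. Changes of more than 2-fold were found in 45 of the former and 13 of the latter. Their mean level over the 6 samples ran from 1.04 to 1207 CPM with a median of 56.6 CPM. For each of the 110 the diets were fully separated, as they were for 21.6% of all tested transcripts.

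The count depended on single libraries. It was 32, 188 and 3 without replicates 1, 2 and 3 of the 0.25 diet, and 176, 2 and 9 without replicates 1, 2 and 3 of the 0.55 diet. Without replicate 3 of the 0.25 diet, 3 rose and 0 fell. Without replicates 2 and 3 of the 0.55 diet, 2 and 6 rose, and 0 and 3 fell. In the other fits most fell, with 23 of 32, 160 of 188 and 153 of 176. None of the 110 DE transcripts changed sign in any of these 6 fits. The diets were fully separated for all 110, so leaving out a sample left little room for a change of sign. Sodh-1 alone stayed past both thresholds in all 6 fits. The unadjusted p fell below 0.05 for 1458 transcripts, 1026 of them lower on the 0.55 diet. The common biological coefficient of variation in the fit was 0.131.

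**Figure D1:**
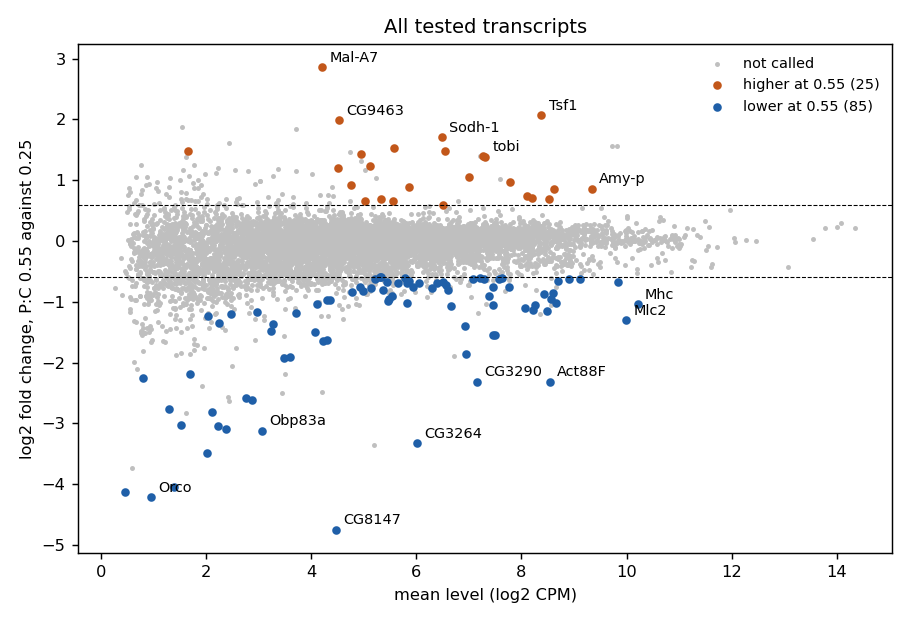
Log2 fold change of P:C 0.55 against 0.25 (y axis) against the mean level in log2 CPM (x axis) for the 9740 tested transcripts, with the 110 DE transcripts in colour and dashed lines at a 1.5-fold change. The 85 transcripts that were lower on the 0.55 diet lie at low and high levels alike, between 1.04 and 1207 CPM with the 25 that were higher.

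Genes of the contractile apparatus were lower on the 0.55 diet as a group. Of 29 tested members of a list of thick filament, thin filament, troponin and Z-disc genes, 13 fell and none rose, all 29 had a log2 fold change below 0, and their median was -0.87 against 0.02 over all tested transcripts. The summed level of the list was 14780, 11519 and 13517 CPM in the samples of the 0.25 diet and 8696, 6464 and 6725 CPM in those of the 0.55 diet, without overlap.

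The largest fall belonged to Act88F, the actin of the indirect flight muscles, on chromosome 3R from 15439969 to 15442177 (dm6). Its level was 611, 682 and 605 CPM on the 0.25 diet and 203, 81.3 and 94.7 CPM on the 0.55 diet. This was a log2 fold change of -2.31 with a standard error (SE) of 0.32 and an adjusted p of 0.0238. Replicate 1 of the 0.55 diet was the highest of its group here and in each of the other 12 members that fell, and lay below the lowest sample of the 0.25 diet in all 13. Flightin (fln), a thick filament protein of flight muscle, had 279, 265 and 278 CPM against 124, 72.2 and 82.7 CPM, a log2 fold change of -1.55 (SE 0.19, adjusted p = 0.0156). Zasp67, a Z-disc protein, fell from a mean of 18.7 ± 2.24 to 4.94 ± 1.10 CPM (SD, n = 3 each), and TpnC4, the calcium sensor of stretch-activated flight muscle, from 178 ± 6.55 to 67.2 ± 18.1 CPM. TpnC4 and fln each overlap another transcript of the table.

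Mlc2, the regulatory light chain of myosin, on chromosome 3R from 30171438 to 30174551, had 1560, 1450 and 1427 CPM on the 0.25 diet and 734, 490 and 567 CPM on the 0.55 diet. Its log2 fold change was -1.30 (SE 0.15, adjusted p = 0.0149). Myosin heavy chain (Mhc) changed by -1.04 (SE 0.19) with an adjusted p of 0.05 when rounded, just inside the threshold, and levels of 1870, 1301 and 1704 against 1015, 676 and 678 CPM. The other members that fell were the essential light chain Mlc1 (-1.14), troponin I (wupA, -1.11), tropomyosin 2 (Tm2, -1.06), troponin T (up, -1.01), TpnC25D (-0.97), paramyosin (Prm, -0.86) and the myosin light chain kinase Strn-Mlck (-1.15), all on the log2 scale.

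The other 16 members missed the threshold. Act79B, the actin of leg and other tubular muscles, had a log2 fold change of -1.20 and an adjusted p of 0.0627. The values nearest to 0 were those of tropomyosin 1 (Tm1, -0.41), alpha-actinin (Actn, -0.33) and myofilin (Mf, -0.29), and the titin homologue sls had -0.50. Of 9 genes of muscle calcium handling and excitation, the calcium channel subunit Ca-alpha1D (-0.77, adjusted p = 0.0445) fell and none rose. Strn-Mlck, already counted among the 13, stood in this list too. In it 6 were below 0 and 3 above, 1 of the latter with an unadjusted p below 0.05. The count of 13 was 5, 22 and 0 without replicates 1, 2 and 3 of the 0.25 diet and 21, 0 and 1 without those of the 0.55 diet, 21 when samples were scaled by library size only, and 20 in DESeq2. The unadjusted p fell below 0.05 for 27 of the 29.

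Genes of mitochondrial energy supply were lower too, by smaller steps. CG9090, named Mpcp1 at present, a carrier that brings phosphate into mitochondria, had 530, 468 and 530 CPM on the 0.25 diet and 301, 234 and 251 CPM on the 0.55 diet, and a log2 fold change of -0.96 (SE 0.11, adjusted p = 0.0152). Citrate synthase (kdn), the entry enzyme of the citric acid cycle, had 1242, 1037 and 1159 against 806, 668 and 678 CPM (log2 fold change -0.67, adjusted p = 0.035). Cytochrome c (Cyt-c-p) changed by -0.62, the mitochondrial glycerol-3-phosphate oxidase Gpo-1, a part of the shuttle that flight muscle uses to oxidize NADH, by -0.88, and CG34172, a subunit of cytochrome c oxidase now named COX7AL2, by -0.96. The diets were fully separated in each of these 5 transcripts, as in all 110 DE transcripts.

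Over the list of respiratory chain and ATP synthase subunits, 1 of 64 tested members was DE (CG34172), but 62 had a log2 fold change below 0. The median was -0.33, and 58 did not overlap between the diets, against 21.6% of all tested transcripts. The steps of most subunits were thus under the 1.5-fold minimum. Of 15 genes of the citric acid cycle, a list written after the calls were seen, 1 was DE (kdn), 14 were below 0 and the median was -0.37. Mitochondrial ribosomal proteins did not share this pattern, with 21 of 70 below 0 and a median of 0.06. Summed over the list, the respiratory chain stood at 22551 to 24518 CPM on the 0.25 diet and at 17602 to 20367 CPM on the 0.55 diet.

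**Figure D2:**
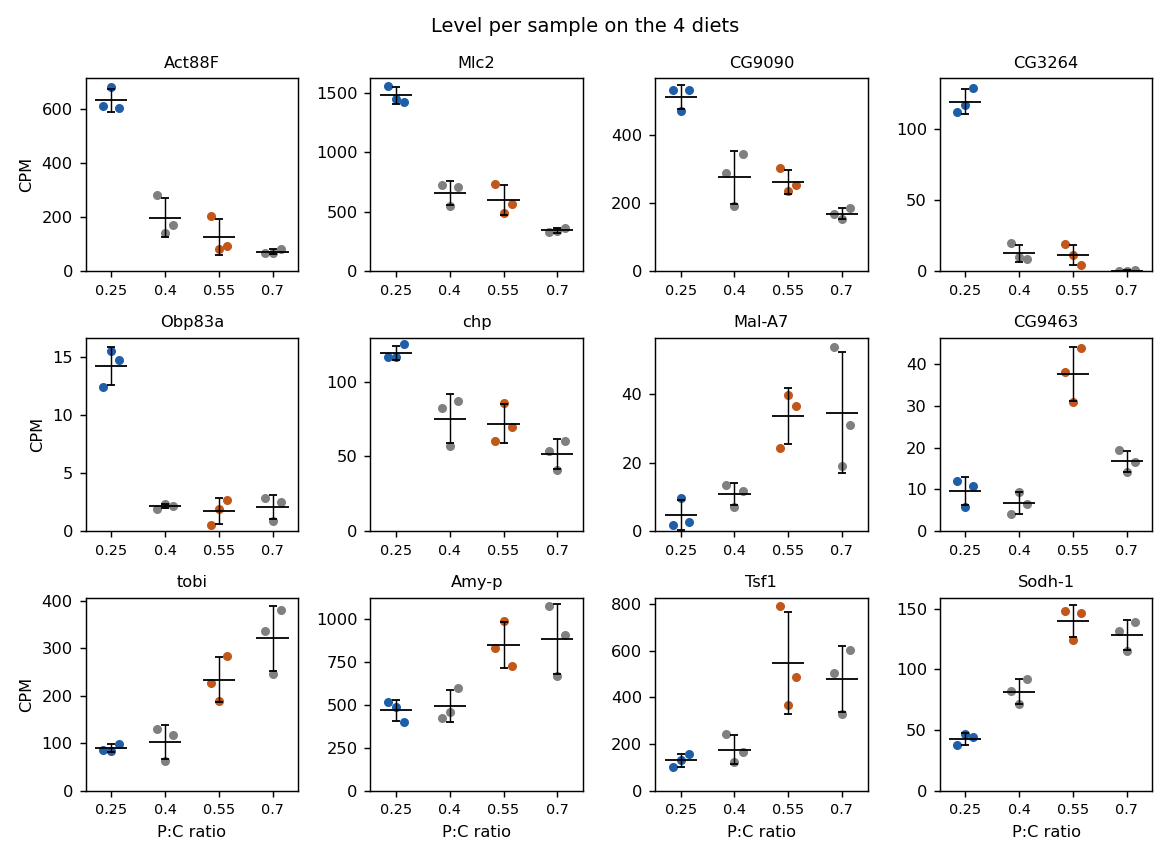
Level in CPM (y axis, from 0) of 12 DE transcripts on the 4 diets (x axis, P:C ratio), with a point per sample, a line at the mean and a bar for the SD of 3 samples; the 0.25 diet is blue, the 0.55 diet orange and the other 2 diets grey. Act88F and Mlc2 lie highest in the 3 samples of the 0.25 diet, from 605 and 1427 CPM up, while CG9463 is highest in those of the 0.55 diet.

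Genes that encode enzymes of carbohydrate digestion were higher on the 0.55 diet. Of 19 tested members of the list, 7 rose and none fell, and the median log2 fold change was 0.55 against 0.02 over all tested transcripts. The summed level of the list was 1911 to 2197 CPM in the samples of the 0.25 diet and 2943 to 3162 CPM in those of the 0.55 diet.

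Mal-A7, a maltase of the alpha-glucosidase cluster on chromosome 2R (8468646 to 8471663), rose most. It had 1.63, 9.57 and 2.62 CPM on the 0.25 diet and 24.3, 39.9 and 36.6 CPM on the 0.55 diet, a log2 fold change of 2.86 (SE 0.50, adjusted p = 0.0416). Replicate 2 of the 0.25 diet stood above its group and still below every sample of the 0.55 diet. Its neighbour Mal-A6 had 24.1, 35.2 and 16.7 CPM against 72.6, 74.8 and 69.1 CPM (log2 fold change 1.52, SE 0.23, adjusted p = 0.0347). The remaining maltases of the cluster ranged from -0.05 (Mal-A5) to 1.84 (Mal-A8, adjusted p = 0.0828) without passing the threshold, and Mal-A1 had 1.40 with an adjusted p of 0.0852. Mal-B1 and Mal-B2, outside the cluster, had -0.18 and -0.29.

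The target of brain insulin, tobi, an alpha-glucosidase on chromosome 3R (25344761 to 25346921) whose transcript overlaps rha, had 85.4, 83.6 and 98.6 CPM on the 0.25 diet and 228, 189 and 284 CPM on the 0.55 diet. Its log2 fold change was 1.39 (SE 0.15, adjusted p = 0.0147), and it passed in 5 of the 6 fits with a library left out. The paired amylase genes rose less. Amy-p had 518, 489 and 401 against 834, 988 and 726 CPM (log2 fold change 0.86, SE 0.13, adjusted p = 0.035), and Amy-d had a log2 fold change of 0.74 (SE 0.12, adjusted p = 0.035). Amy-p and Amy-d are near-identical copies, so that reads may have been split or shared between them.

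CG9463 and CG9465, which the annotation now calls LManIII and LManIV, are alpha-mannosidases and not starch enzymes. CG9463, on chromosome 2L from 8765273 to 8768710, had 12.1, 5.84 and 10.8 CPM on the 0.25 diet and 38.2, 31.0 and 44.1 CPM on the 0.55 diet (log2 fold change 1.98, SE 0.25, adjusted p = 0.0168). CG9465 (transcript CG9465-RB) rose (adjusted p = 0.0457) from 1.62 ± 0.344 to 4.50 ± 0.379 CPM (SD, n = 3 each), a call lost without the filter on low counts (adjusted p = 0.0524) and with any 1 of the 6 samples left out (0.0729 to 0.197). Both were lower at P:C 0.7 than at 0.55, with mean levels of 16.7 and 1.69 CPM there. The related CG9466, CG9468 and LM408 had log2 fold changes of 0.28, 0.30 and -0.20, none past the threshold. The count of 7 was 2, 8 and 0 without replicates 1, 2 and 3 of the 0.25 diet and 6, 1 and 1 without those of the 0.55 diet.

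The listed genes of protein digestion gave no call in this comparison. These serine proteases of the gut were listed by gene symbol, so that the list need not hold every protease. Of its 32 tested members, none was DE, 24 were below 0 and the median was -0.14. Jon99Ci, a jonah protease, had an adjusted p of 0.0457 with a log2 fold change of 0.40, below the fold minimum. The unadjusted p fell below 0.05 for 11 of these proteases that were lower and for 2 that were higher. Over all 9740 tested transcripts these numbers were 1026 and 432. Of the 10 tested midgut markers only Amy-p was DE, and the summed level of these markers was 7092 to 9127 CPM on the 0.25 diet and 8057 to 9406 CPM on the 0.55 diet, with overlap.

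Of 26 tested odorant-binding proteins, 8 fell and 1 rose on the 0.55 diet, their median on the log2 scale was -0.33, and the olfactory co-receptor Orco fell as well. Several of those that fell were close to the detection limit on the 0.55 diet. Orco, the co-receptor that most odorant receptors need to reach the membrane, on chromosome 3R from 5407183 to 5412406, had 12, 35 and 30 counts in the samples of the 0.25 diet and 1 count in each sample of the 0.55 diet. With library sizes taken into account, this was a ratio of 20.7 (95% interval 6.82 to 102, counting error only), with an adjusted p of 0.0238. On the 0.4 and 0.7 diets Orco had 2 to 10 counts, so that it was low in all 9 samples outside the 0.25 diet. The pheromone-binding protein lush had 12, 16 and 23 counts against 0, 2 and 0 (ratio 20.5, interval 5.40 to 174, adjusted p = 0.0408). The call of lush (transcript lush-RA) was lost without the filter on low counts (adjusted p = 0.0524), in DESeq2 (shrunken log2 fold change -0.05) and with any 1 of the 6 samples left out (adjusted p from 0.0509 to 0.18). Obp19a, another odorant-binding protein, had 31, 44 and 32 counts against 2, 0 and 3 (ratio 17.2, interval 7.16 to 54.2, adjusted p = 0.0272).

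Obp83a, which is made in support cells of antennal hairs, had 12.4, 15.5 and 14.8 CPM on the 0.25 diet and 0.504, 1.88 and 2.71 CPM on the 0.55 diet. Its log2 fold change was -3.12 (SE 0.39, adjusted p = 0.0168). The antennal proteins a10 (-3.49, adjusted p = 0.0147) and Os-C (-3.09, adjusted p = 0.0153, overlapping Sfp84E) behaved alike, with means of 6.61 and 8.39 CPM on the 0.25 diet and samples of 0.319 to 0.883 and 0.631 to 1.25 CPM on the 0.55 diet. Jhedup, an esterase of the juvenile hormone esterase family, fell by 3.04 on the log2 scale (SE 0.47, adjusted p = 0.035). It was the only DE gene among 25 tested genes of juvenile hormone and ecdysone metabolism and response.

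The other odorant-binding proteins that fell were Obp83b, Obp69a, Obp28a, Obp56e and Obp19d, from -2.81 to -0.76. Obp99a, which rose, was made at higher levels, with 91.3, 59.2 and 107 CPM on the 0.25 diet and 266, 177 and 235 CPM on the 0.55 diet (log2 fold change 1.40, SE 0.23, adjusted p = 0.0363). Obp44a, Obp99c and Obp18a, with means of 14 CPM or more, had log2 fold changes of 0.06, -0.04 and -0.11. Of 56 odorant receptors in the table, a list added after the calls were seen, 2 had enough counts to be tested, Orco and Or43b, and Or43b had a log2 fold change of 0.20. The 9 odorant-binding calls became 3 when 10 counts were required in every sample. They were 4, 5 and 0 without replicates 1, 2 and 3 of the 0.25 diet and 6, 0 and 1 without those of the 0.55 diet.

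Some genes of the eye and of the nervous system were lower on the 0.55 diet. Of 25 genes of phototransduction, a list written after several of them were seen among the calls, 7 fell, 22 were below 0 and the median was -0.56. The 7 were the eye myosin ninaC (-0.76), chaoptin (chp, -0.73), the G protein subunits Gbeta76C (-0.68) and Ggamma30A (-0.62), the light-activated channel trp (-0.63), the arrestin Arr2 (-0.62) and the scaffold inaD (-0.59). Chaoptin had 117, 117 and 125 CPM on the 0.25 diet and 60.3, 86.1 and 69.9 CPM on the 0.55 diet. Here replicate 1 of the 0.55 diet was the lowest of its group, unlike in muscle. The main rhodopsin ninaE had a log2 fold change of -0.53 (adjusted p = 0.0758). The count of 7 became 1, 5 and 0 without replicates 1, 2 and 3 of the 0.25 diet and 3, 0 and 0 without those of the 0.55 diet. In DESeq2, whose shrunken fold changes were held to the same 1.5-fold minimum, trp, Ggamma30A, Arr2 and inaD were no longer DE, and inaD was lost with all 12 samples in the fit too.

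Among 15 neural and glial markers, choline acetyltransferase (Cha, now ChAT, -0.76) and neuronal synaptobrevin (nSyb, -0.69) fell, all 15 were below 0 and the median was -0.54. Their summed level was 762 to 920 CPM on the 0.25 diet and 496 to 665 CPM on the 0.55 diet. The smallest value was that of the pan-neuronal elav (-0.12, adjusted p = 0.774), with 34.5 to 45.7 CPM on the 0.25 diet and 30.5 to 42.1 CPM on the 0.55 diet, which overlap. Other neural genes among the calls, named after their values were seen, were the glutamate transporter Eaat2 (-0.84), the RNA-binding protein Rbp9 (-0.67), the synaptic vesicle protein stnB (-0.66), the sodium pump subunit nrv3 (-0.63), the ankyrin Ank2 (-0.61) and hig, a matrix protein of the synaptic cleft (-0.60). The calls of nrv3, Ank2 and hig were lost in DESeq2.

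**Figure D3:**
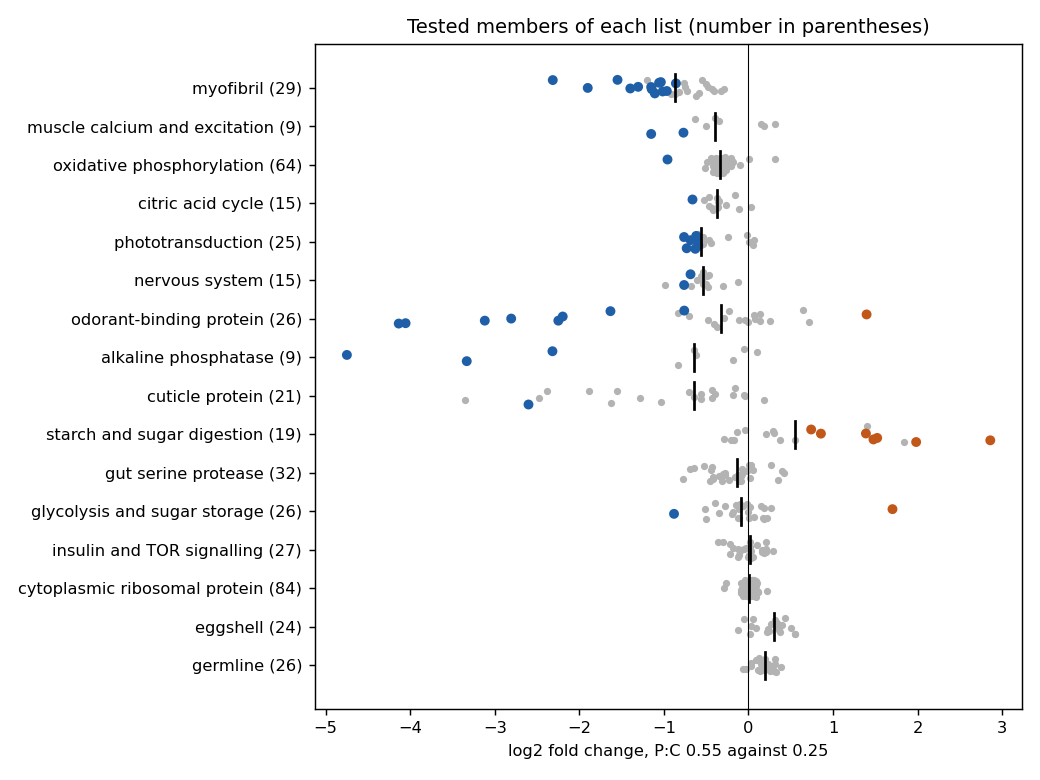
Log2 fold change of P:C 0.55 against 0.25 (x axis) for every tested member of 16 lists (y axis, number tested in parentheses), with DE members in blue (lower) or orange (higher), the others in grey and a black tick at the median. All 29 myofibril members lie below 0, and ribosomal proteins cluster around a median of 0.01. The citric acid cycle, phototransduction and alkaline phosphatase lists were added after the calls were seen.

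Alkaline phosphatases, enzymes that release phosphate from organic compounds, held the largest fall among the DE transcripts. CG8147, now phu, on chromosome 3R from 9494801 to 9496723, had 70.8, 24.5 and 32.4 CPM on the 0.25 diet and 2.02, 1.57 and 0.958 CPM on the 0.55 diet, a log2 fold change of -4.75 (SE 0.52, adjusted p = 0.0147). CG3264 (Alp8) had 112, 116 and 129 CPM against 18.8, 11.3 and 4.47 CPM (log2 fold change -3.33, SE 0.36, adjusted p = 0.0147). Its neighbour CG3290 (Alp2) had 349, 194 and 185 CPM against 59.0, 54.2 and 31.6 CPM (log2 fold change -2.32, SE 0.30, adjusted p = 0.0192). Of 9 tested members of the family, a list added after the calls were seen, these 3 fell and 8 were below 0. CG3264 went on falling beyond the intermediate diet, with 0 to 0.568 CPM at P:C 0.7, while CG8147 was at 0.856 to 1.41 CPM there.

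Cuticle proteins were listed by gene symbol too, so that the list need not hold every cuticle gene. Of its 21 tested members 1 fell, 20 had a log2 fold change below 0 and the median was -0.64. The DE member Cpr47Ea, whose transcript overlaps Or47a, had 16.7, 9.82 and 10.01 CPM on the 0.25 diet and 3.28, 0.626 and 1.76 CPM on the 0.55 diet (log2 fold change -2.61, SE 0.45, adjusted p = 0.04). Cpr92F had the lowest value of the list, -3.36 with an adjusted p of 0.0629, and levels of 116, 35.4 and 51.4 against 11.6, 0.626 and 6.55 CPM. Replicate 1 of each diet was the highest of its group. No gene of tanning and pigmentation was DE among 17 tested. The smallest p of that list was that of the aspartate decarboxylase black (b-RB), with -0.63 and an adjusted p of 0.0594.

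The remaining transcripts that rose on the 0.55 diet included several metabolic enzymes. Sodh-1, a sorbitol dehydrogenase on chromosome 3R from 7052335 to 7054541, had the smallest p of all, with 37.5, 47.1 and 44.2 CPM on the 0.25 diet and 148, 125 and 147 CPM on the 0.55 diet (log2 fold change 1.70, SE 0.11, adjusted p = 0.0035). Its paralog Sodh-2 had a log2 fold change of 0.18 (adjusted p = 0.6), at means of 14.6 and 16.6 CPM. CG6910 (Miox), the oxygenase that breaks down inositol, changed by 0.69, CG18003 (Hao), a hydroxyacid oxidase, by 0.65, and CG9510 (Argl), argininosuccinate lyase, by 0.90.

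Transferrin 1 (Tsf1), the iron carrier of the hemolymph, on chromosome X from 18387084 to 18390344, had 102, 134 and 156 CPM on the 0.25 diet and 791, 365 and 485 CPM on the 0.55 diet. Its log2 fold change was 2.07 (SE 0.29, adjusted p = 0.0238), and the samples of the 0.55 diet spread over more than those of the 0.25 diet. Of 8 hemocyte markers, PPO1, a prophenoloxidase of crystal cells, rose (0.66, SE 0.11, adjusted p = 0.039) but passed in none of the 6 fits with a sample left out, and all 8 were above 0 with a median of 0.42. The larval storage protein Lsp2 had 259, 342 and 789 CPM against 1270, 1239 and 1590 CPM, a log2 fold change of 1.56 that did not pass (adjusted p = 0.0929). CG8093, which stood in the lysozyme list although its function was not checked, rose by 0.93 (SE 0.12, adjusted p = 0.0226), and none of the other 3 members was DE.

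Several calls come from overlapping transcripts that may count the same reads. In the single samples fln had 1.03 to 1.04 times the counts of the antisense RNA CR45161, and Obp56e had 1.03 to 1.09 times those of the antisense CR44509. CR45955 had 0.325 to 0.361 times the counts of CG32444, which rose from 50.1 ± 8.86 to 139.6 ± 17.3 CPM (SD, n = 3 each), CR45024 0.243 to 0.306 times those of CG4000, and CG9914 (Had1) 0.608 to 0.845 times those of CG3679 (log2 fold changes 0.97 and 0.71). All 4 non-coding RNAs among the calls were of this kind. After merging these 5 pairs, the 110 transcripts stood for 105 loci. In all, 36.4% of the DE transcripts overlap some transcript of the table, against 45.9% of those tested. Those named above without a mark include Strn-Mlck, TpnC25D, Ca-alpha1D, Obp69a, Arr2, inaD, Ggamma30A, Cha, Rbp9, Ank2, hig, CG9510 and PPO1.

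Many processes that the diets could touch had no DE member. Only 1.13% of all tested transcripts were DE, so that 0 calls in a list of this size show little. Of 27 tested genes of insulin and TOR signalling none was DE, and the median log2 fold change was 0.01. The insulin-like peptide Ilp6 had -0.36 (adjusted p = 0.508), the translation inhibitor Thor -0.22 and the kinase Tor 0.06. None of 84 cytoplasmic ribosomal proteins was DE (median 0.01, from -0.28 to 0.22), nor of 23 genes of ribosome biogenesis, of which 3 were below 0 (median 0.15). In these lists, the unadjusted p fell below 0.05 for 3, 2 and 8 members, in that order. Among 26 genes of glycolysis and sugar storage, Gpo-1 fell, Sodh-1 rose and the median was -0.08, and Pfk, the committed step of glycolysis, had -0.51 with an adjusted p of 0.0521.

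None of 28 genes of fatty acid and triglyceride synthesis, 22 of lipolysis and fatty acid oxidation, 14 of fatty acyl-CoA reduction, 32 of amino acid breakdown, 13 of amino acid transport or 9 of sugar transport was DE, with medians of -0.04, -0.03, -0.34, 0.04, -0.18 and -0.13. The unadjusted p was under 0.05 in 6, 3, 8, 8, 2 and 2 members of these lists, against 1458 of all 9740 tested. The lists do not cover every lipid gene. CG11391 (Acsx2, -2.76, adjusted p = 0.0378) and CG10253 (Agps, -1.48, adjusted p = 0.0153, overlapping CG12853) stood in no list and fell. Of the 14 genes of fatty acyl-CoA reduction, 12 were below 0 and 7 were lower with an unadjusted p under 0.05. The diets did not overlap in 7 of them (21.6% of all tested), and none was DE. Likewise, no listed cytochrome P450 (71 tested, median -0.12) or UDP-glycosyltransferase (26, median -0.22) was DE. Nor was any listed antimicrobial or recognition gene (24, median -0.26) or heat shock gene (18, median -0.27). The unadjusted p was under 0.05 in 13, 4, 3 and 0 members of these lists, in that order. Hsc70-1, a heat shock cognate outside the list, fell (log2 fold change -0.80, adjusted p = 0.0372). Among 31 glutathione transferases GstS1 (transcript GstS1-RA), which is abundant in flight muscle, fell by 0.60 on the log2 scale (SE 0.10, adjusted p = 0.0372), a call lost in DESeq2, where the shrunken log2 fold change was -0.56.

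Transcripts of the germline, eggshell, cell cycle and yolk lists leaned the other way without a call. Of 26 germline markers 24 were above 0 (median 0.20), of 24 eggshell genes 22 (median 0.31), of 27 genes of cell cycle and DNA replication 25 (median 0.13), and all 4 yolk genes were above 0, from 0.22 to 0.34. The eggshell gene with the smallest p was Vm26Ab, with 0.55 and an adjusted p of 0.0693. The summed germline level was 6711 to 7838 CPM on the 0.25 diet and 7984 to 9046 CPM on the 0.55 diet, without overlap, while the sums of the eggshell, yolk and cell cycle lists overlapped between the diets. The yolk protein genes stood in the list of fat body markers as well. The part of tissue shares in the falls of muscle, eye and nerve genes was not tested.

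The 6 samples of the control and 0.7 diets took no part in the calls, and these diets were compared with each other as a second step toward more protein. Of the 110, 105 were tested at 0.7 against 0.4, and 95 (90.5%) had the same sign there, while over all 9608 transcripts tested in both comparisons 70.7% had the same sign. The 80 that were lower had the same sign in 74 and a median log2 fold change of -0.62, and the 25 that were higher in 21 with a median of 0.48, against a median of 0.00 over all transcripts. Of the former, 37 were DE and lower at 0.7 (3.82% of all tested were), and of the latter 10 were DE and higher (0.577% of all tested were). None was DE in the opposite direction.

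At 0.7 against 0.4, 17 of the 29 myofibril genes were DE and lower, 28 were below 0 and the median was -0.62. Act88F changed by -1.45 (adjusted p = 0.0132) and Mlc2 by -0.95 (adjusted p = 0.00528). Of the 19 carbohydrate enzymes 6 were DE and higher, among them tobi (1.63, adjusted p = 0.0132), Mal-A7 (1.64, adjusted p = 0.0349) and Amy-p (0.83, adjusted p = 0.0304), and 2 were DE and lower, CG5322 and LM408. The antennal genes a10, Os-C and Obp83a did not pass, with a10 at 0.11 (adjusted p = 0.853), Os-C at 0.71 (adjusted p = 0.247) and Obp83a at -0.15 (adjusted p = 0.828). None of the 24 odorant-binding proteins tested at 0.7 against 0.4 was DE and lower. Of 31 gut serine proteases tested there, 12 were DE and lower and 0 higher, 29 were below 0 and the median was -0.56. The eggshell list went the other way than at 0.55 against 0.25, with 22 of 24 below 0, 2 DE and lower, and a median of -0.43. Of the yolk genes 3 of 4 were below 0 (median -0.23). Germline markers and cell cycle genes kept their direction, with 4 of 26 and 0 of 27 below 0 (medians 0.14 and 0.34).

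**Figure D4:**
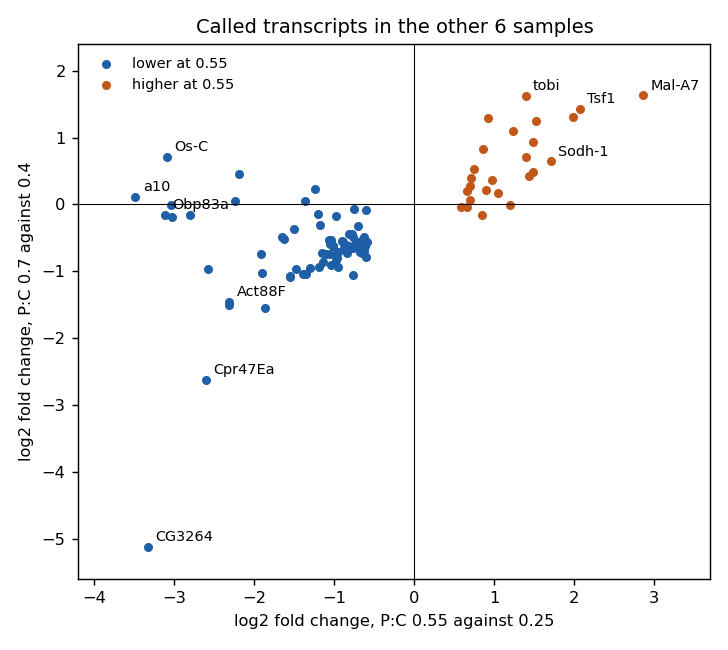
Log2 fold change of P:C 0.7 against 0.4 (y axis, samples that took no part in the calls) against that of P:C 0.55 against 0.25 (x axis) for the 105 DE transcripts tested in both, with those lower on the 0.55 diet in blue and those higher in orange. Most points lie in the lower left or upper right of the plot, while a10, Os-C and Obp83a lie at 0.11, 0.71 and -0.15 on the y axis.

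Placed on the control diet, the falls and the rises differed. For 82 of the 85 transcripts that fell, the mean of the control diet was nearer to that of the 0.55 diet than to that of the 0.25 diet on the log2 scale, and for 73 it lay between both. Of the 25 that rose, the control mean was nearer to the 0.55 diet for 9 and lay between for 22. Mean levels at P:C 0.7 were below those at 0.55 for 69 of the 85, and above them for 8 of the 25. Tsf1, tobi and Amy-p, with control means of 176, 103 and 493 CPM, lay close to the 0.25 diet (130, 89.2 and 470 CPM) and far from the 0.55 diet (547, 234 and 849 CPM).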

How the data were processed

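Polyadenylated RNA of whole females was sequenced in 12 samples, and the 3 of P:C ratio 0.55 were compared with the 3 of P:C ratio 0.25. Per the labels and the study's methods, the authors trimmed reads with Trim Galore, aligned them with HISAT2 to BDGP6 (dm6) and counted them per transcript in SeqMonk, and the deposited table holds raw counts of 15448 transcripts, of which 3138 had no count in the 6 samples. No strand setting is given, so that reads of a gene and an antisense partner cannot be told apart. Gene names were taken from the transcript names, since the feature column named another gene for 3581 transcripts.

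The counts of the 6 samples were fitted with the quasi-likelihood test of edgeR 4.0.16 (R 4.3.3, limma 3.58.1) after filterByExpr and TMM scaling, and p-values were adjusted by Benjamini-Hochberg over all transcripts tested. The standard error is the size of the log2 fold change divided by the square root of F. CPM, except those of the detection limit, were scaled by TMM over the 12 samples. A prior count of 2 was added for log2 CPM. Replicate numbers were not used as pairs in the main fit. Deviations from the diet means correlated by 0.42, -0.12 and -0.13 between samples of the same number. So few samples cannot decide whether the numbers mark pairs.

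Transcripts were named by a rule: among DE transcripts, the 8 largest changes in each direction and, over a mean log2 CPM of 5, the 5 smallest p in each direction, and of each list the 3 called members with the largest change or else the member with the smallest p. Other named transcripts were chosen after their values were seen. One transcript that the rule picks is not reported here. The members and lists were chosen with earlier results of these data known. Alternatives were DESeq2 1.42.0 with fold changes shrunken by apeglm 1.24.0, its size factors, library size scaling, other filters on low counts, no fold minimum, a fit on all 12 samples, a replicate block, and each sample left out in turn.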

Additional observations from a re-analysis of the deposited data

Results flagged for a closer look

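The male tract marker genes entered no comparison, because 0 of 16 passed the filter on low counts. Their summed level was 18.8 CPM in the library labelled P:C 0.55 replicate 3, from 118 counts, and 0.373 to 0.856 CPM in the other 11 samples. Without that library 9 transcripts were DE.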

How the results depend on the processing

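No DE transcript changed sign under any other tool, setting or omitted sample that was run. The diets were fully separated for each of them, which left little room for a change of sign. The total of 110 DE transcripts (85 lower, 25 higher on the 0.55 diet) was 190 (159 lower) with scaling by library size, 177 (140 lower) with DESeq2 and 191 (160 lower) with all 12 samples in the fit. It was 111 with DESeq2 size factors, 134 without a filter on low counts, 88 with 10 counts required in every sample, 121 without the fold minimum, and 266 (230 lower) without the fold minimum and with library size scaling. With the replicate number as a block, 164 were DE (133 lower). What samples of the same number share is not given. Leaving out each sample in turn gave 2 to 188 in all, 0 to 160 lower, 2 to 28 higher, and 89.7% to 100% as the share of the DE transcripts with the same direction at P:C 0.7 against 0.4. Of the 110, 73 were DE under all 7 other tools and settings, and 31, 97 and 1 without replicates 1, 2 and 3 of the 0.25 diet and 93, 2 and 9 without those of the 0.55 diet were DE again. The cause of these differences was not tested. Depth limits the values of Orco, lush and Obp19a, which had 0 to 3 counts in each sample of the 0.55 diet.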

Other observations

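Among the transcripts that passed the adjusted p of edgeR's test, 11 stayed under the 1.5-fold minimum. The 3 that were higher on the 0.55 diet were CG9512, Jon99Ci and fs(1)M3. Of those that were lower, the rhodopsin Rh4, the diacylglycerol kinase rdgA and inaF-B belong to phototransduction, and CoVa to cytochrome c oxidase.

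Of the 110 DE transcripts 37 stood in a list and 73 in none, leaving out the lists added after the values were seen, and 31 carry no current gene name beyond a CG or CR number.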
